A study of Mus musculus with 14 samples.

Results

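The platelet-derived growth factor (PDGF) genes of the mouse were followed through bulk RNA-seq of plexiform neurofibromas (PNs): the ligand genes Pdgfa, Pdgfb, Pdgfc and Pdgfd and the receptor genes Pdgfra and Pdgfrb. These 6 genes were taken by their symbols from the 24062 genes of the count table rather than by a threshold on a measured value; the choice of this gene family was made with earlier results of these data known. All 6 passed the filter on low counts in every comparison. The libraries came from 14 tissues: 3 controls, 5 slow-growing PNs and 6 fast-growing PNs. Controls were dorsal root ganglia (DRGs) with their nerves from mice labelled Nf1fl/fl, which carry the floxed Nf1 alleles and no Cre. PNs came from mice labelled DhhCre;Nf1fl/fl, in which the Dhh promoter drives Cre in the Schwann cell (SC) lineage, so the other cells of the tumor keep their Nf1 alleles. All mice were on a mixed C57BL/6, I-129 and FVBN background, none received a drug, and the Methods give an age of 9 months, while a legend of the study speaks of PNs at 7 months. Tumor volume was measured by MRI at 7 and 9 months; fast-growing PNs had gained more than 35 mm3 over these 2 months and slow-growing PNs had changed by less than 5 mm3. The labels do not say whether the 3 controls came from separate animals, and the p-values below measure only the spread between these tissues.

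PDGFs are secreted dimers that act on a pair of receptor tyrosine kinases. PDGF-A is a ligand of PDGFRα, PDGF-B binds both receptors, PDGF-C acts mainly through PDGFRα, and PDGF-D acts mainly through PDGFRβ. PDGF-C and PDGF-D are released with an inhibitory CUB domain, which extracellular proteases must remove. In peripheral nerve, Pdgfra is known as a gene of fibroblasts and Pdgfrb as a gene of pericytes and smooth muscle cells, which endothelial cells recruit with PDGF-B. Receptor signaling runs through RAS, the GTPase that neurofibromin, the product of Nf1, switches off.

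The libraries held between 9596773 and 17594164 counts on genes, and 3 counts, taken as the floor of detection, corresponded to 0.171 to 0.313 CPM (counts scaled to the library total). The floor covers counting error only, since amplified reads are not independent molecules. Counts of the 45S ribosomal RNA gene Rn45s led 13 of the 14 libraries, with 6.49% to 18.1% of all counts. Nf1, the floxed gene, was measured at 131 to 229 CPM in controls, 224 to 293 CPM in the slow-growing and 224 to 276 CPM in the fast-growing PNs; these counts cover the whole gene, including exons outside the floxed part, so they are no check of the deletion. Marker genes of SCs summed to 4521 to 13453 CPM in controls, 8170 to 21620 CPM in the slow-growing and 7976 to 11998 CPM in the fast-growing PNs. Neuron markers summed to 1677 CPM or more in 13 libraries and to 49.9 CPM in fast-growing PN 1191. In bulk tissue, fewer cells of a type cannot be told apart from less RNA per cell.

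Start sites of 4 of the 6 genes had an entry in the RefSeq promoter table for mm10 (GRCm38), which holds 32851 windows. The bases upstream of the RefSeq start are shown for the genes that stood apart from controls. These were Pdgfa and Pdgfra, higher in fast-growing PNs only, and Pdgfc and Pdgfd, lower in all PNs. Each window was cut at the first base in an annotated exon of the gene, which shortened the Pdgfa window from 250 to 157 bases. The 93 bases next to the RefSeq start of Pdgfa are therefore missing from its window. The second Pdgfa entry is not shown. Each is written 5′ to 3′ on the coding strand, and capitals mark a searched motif.

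Pdgfa chr5:138995038-138995194 (-): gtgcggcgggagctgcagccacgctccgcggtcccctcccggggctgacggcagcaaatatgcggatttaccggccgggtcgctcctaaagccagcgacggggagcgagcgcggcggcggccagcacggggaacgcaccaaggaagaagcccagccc

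Pdgfra chr5:75152001-75152250 (+): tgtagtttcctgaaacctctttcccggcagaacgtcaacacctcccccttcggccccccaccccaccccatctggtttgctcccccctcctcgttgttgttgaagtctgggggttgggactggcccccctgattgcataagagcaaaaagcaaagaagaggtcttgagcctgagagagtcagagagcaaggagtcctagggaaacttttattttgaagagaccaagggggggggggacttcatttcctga

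Pdgfc chr3:81036166-81036415 (+): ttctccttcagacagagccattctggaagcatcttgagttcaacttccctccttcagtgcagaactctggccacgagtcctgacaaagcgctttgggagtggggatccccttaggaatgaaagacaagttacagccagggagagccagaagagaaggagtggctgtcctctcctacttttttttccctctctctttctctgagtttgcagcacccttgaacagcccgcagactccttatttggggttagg

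Pdgfd chr9:6168236-6168485 (+): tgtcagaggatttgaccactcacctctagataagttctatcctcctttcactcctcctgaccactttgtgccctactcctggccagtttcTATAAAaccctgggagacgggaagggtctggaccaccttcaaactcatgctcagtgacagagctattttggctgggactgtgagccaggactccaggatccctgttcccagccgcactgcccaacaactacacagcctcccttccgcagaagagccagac

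These motifs were searched on both strands: the GC box GGGCGG, the CCAAT box CCAAT, the TATA box core TATAAA and the AP-1 site TGACTCA; none of these overlaps another. Pdgfd held 1 TATAAA, a motif present in 12.4% of all 250-base upstream windows of the table. The RefSeq start behind the Pdgfd window has no GENCODE transcript starting at it, and the GENCODE gene begins downstream of the window, at position 6168584. The windows of Pdgfra and Pdgfc held none of the 4, which occur in 32.7% (GGGCGG), 33.8% (CCAAT), 12.4% (TATAAA) and 4.5% (TGACTCA) of windows of that length. The Pdgfa window also held none, but the 93 bases next to its RefSeq start were not searched. Over 157 bases the same motifs occur in 17.6%, 21.0%, 7.5% and 2.7% of windows. The base composition differed, with 72.0% G and C upstream of Pdgfa against 54.4% for Pdgfra, 53.6% for Pdgfd and 50.8% for Pdgfc.

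Fast-growing PNs carried more Pdgfa and Pdgfra and less Pdgfd than controls, and these 3 genes passed the test there. Pdgfa was 2.67-fold and Pdgfra 2.24-fold higher, and Pdgfd was 4.14-fold lower. Pdgfc was lower in every PN than in every control without passing the test, and Pdgfrb overlapped between all groups. None of the 6 genes passed the test in slow-growing PNs against controls or in fast- against slow-growing PNs. In the comparisons that follow, levels are CPM scaled by trimmed mean of M values (TMM) factors, fold changes come from edgeR's quasi-likelihood test, and a gene was called at a Benjamini-Hochberg adjusted p under 0.05 over all genes tested.

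**Figure D1:**
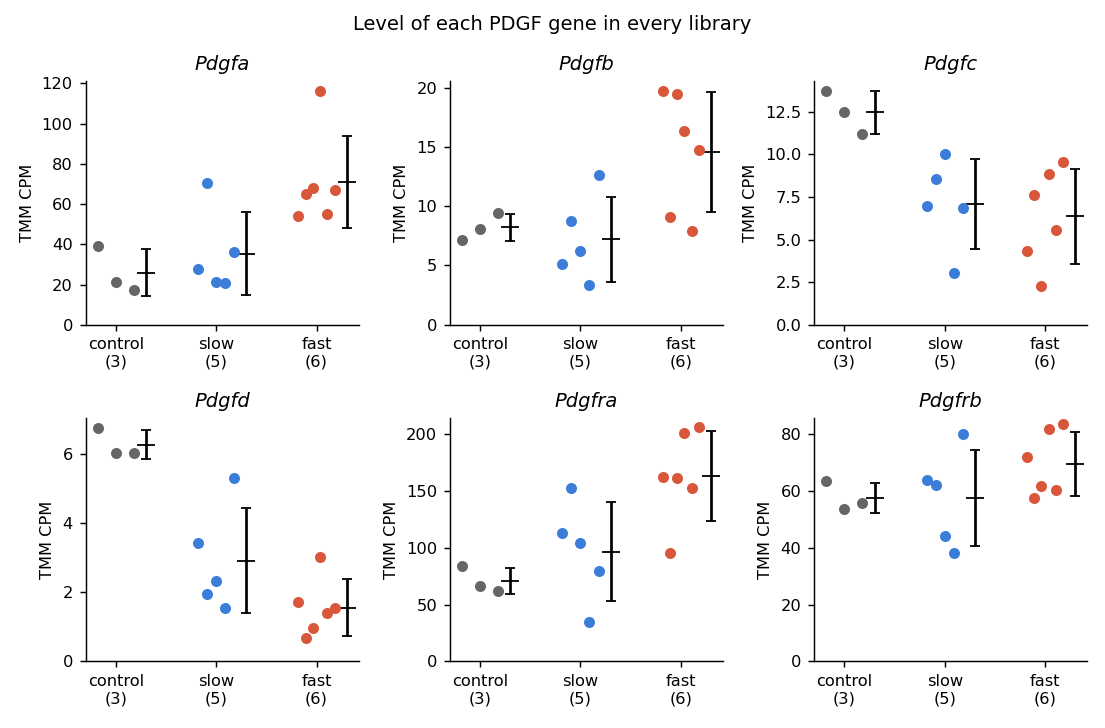
Level of each PDGF gene (TMM CPM, linear axis from 0) in every library of the control, slow-growing and fast-growing groups; each point is a library, and the bar to its right gives the mean and SD of the group. Pdgfa and Pdgfra lie above all controls in the 6 fast-growing PNs, and Pdgfc and Pdgfd lie below all controls in the 11 PNs.

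The ligands of PDGFRα and of both receptors are described first. Pdgfa lies on chromosome 5 of mm10 (chr5:138976014-138997370, minus strand), and its exons overlap those of an antisense gene, 6330403L08Rik. The 3 controls held 39.1, 21.4 and 17.2 CPM of Pdgfa. Among slow-growing PNs it was 27.8 CPM in 1079, 70.5 in 1198A, 21.2 in 1202, 20.8 in 1203 and 36.2 in 1206. Among fast-growing PNs it was 54.1 CPM in 1053, 65.3 in 1071, 67.9 in 1179, 116 in 1191, 55.0 in 1214 and 67.2 in 1216. Each fast-growing PN exceeded each control, while slow-growing PNs overlapped both other groups, with 1198A inside the fast-growing range. The mean was 25.9 ± 11.6 CPM in controls (SD, n = 3), 35.3 ± 20.6 in the slow-growing (SD, n = 5) and 70.9 ± 23.0 in the fast-growing PNs (SD, n = 6). The log2 fold change was 1.41 ± 0.33 (SE) for fast-growing PNs against controls, with an adjusted p of 0.00947. Against slow-growing PNs it was 1.004 ± 0.336, with an adjusted p of 0.122. Without slow-growing PN 1198A this value was 1.42 and the adjusted p was 0.0118, the only 1 of 11 leave-outs under 0.05. For all PNs against controls the log2 fold change was 1.08 ± 0.48, with an adjusted p of 0.113. Slow-growing PNs were at 0.41 ± 0.46 against controls, with an adjusted p of 0.554, and at -0.00021 without slow-growing PN 1198A.

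Pdgfb (chr15:79995874-80014977, minus strand) was a less abundant transcript. Its level was 7.17, 8.04 and 9.41 CPM in the 3 controls. Slow-growing PNs had 5.09 CPM in 1079, 8.72 in 1198A, 6.19 in 1202, 3.38 in 1203 and 12.6 in 1206. In fast-growing PNs it was 19.8 CPM in 1053, 9.05 in 1071, 19.5 in 1179, 16.3 in 1191, 7.92 in 1214 and 14.8 in 1216. The fast-growing PNs fell on either side of the highest slow-growing PN, with 4 above it, and all 3 groups overlapped. Group means were 8.21 ± 1.13 CPM in controls (SD, n = 3), 7.20 ± 3.601 in the slow-growing (SD, n = 5) and 14.5 ± 5.07 in the fast-growing PNs (SD, n = 6). The log2 difference between fast- and slow-growing PNs was 1.01 ± 0.36 (SE), with an adjusted p of 0.139, and that between fast-growing PNs and controls was 0.78 ± 0.34, with an adjusted p of 0.109. Leaving out fast-growing PN 1214 brought the latter to 0.91 with an adjusted p of 0.0454, the only 1 of 9 leave-outs under 0.05. Slow-growing PNs were at -0.23 ± 0.41 against controls, with an adjusted p of 0.72.

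Of the CUB domain ligands, Pdgfd passed the test in PNs and Pdgfc did not. Pdgfc (chr3:81036416-81214040, plus strand; its exons overlap those of the antisense gene Gm16000) was at 13.7, 12.5 and 11.2 CPM in controls. It was at 6.99 CPM in slow-growing PN 1079, 8.57 in 1198A, 10.1 in 1202, 3.01 in 1203 and 6.85 in 1206. It was at 4.32 CPM in fast-growing PN 1053, 7.62 in 1071, 2.27 in 1179, 8.85 in 1191, 5.55 in 1214 and 9.54 in 1216. No PN reached the lowest control, and the slow- and fast-growing ranges overlapped almost wholly. The log2 fold change was -0.90 ± 0.35 (SE) for all PNs, -0.85 ± 0.35 for slow-growing PNs and -1.02 ± 0.38 for fast-growing PNs against controls, with adjusted p of 0.0705, 0.143 and 0.0701. DESeq2 and limma-voom called it in PNs against controls, with adjusted p of 0.0401 and 0.0389, and in fast-growing PNs against controls, with 0.0419 and 0.0395. Leaving out slow-growing PN 1202 gave an adjusted p of 0.0482 for all PNs, the only 1 of 14 leave-outs under 0.05. Fast- and slow-growing PNs differed by -0.16 ± 0.38, with an adjusted p of 0.83.

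Pdgfd (chr9:6168584-6378850, plus strand) had the lowest mean CPM of the family in each group. Controls held 6.74, 6.01 and 6.03 CPM, from 57 to 78 counts. Slow-growing PNs held 3.42 CPM in 1079, 1.95 in 1198A, 2.34 in 1202, 1.55 in 1203 and 5.30 in 1206. Fast-growing PNs held 1.72 CPM in 1053, 0.68 in 1071, 0.95 in 1179, 3.03 in 1191, 1.41 in 1214 and 1.54 in 1216, with 10 counts in the lowest. Every PN was below every control and above the floor of 3 counts, and slow-growing PN 1206 came closest to the controls. Pdgfd fell by 1.53 ± 0.43 (SE) on the log2 scale in PNs against controls, with an adjusted p of 0.0179, a fold decrease of 2.89. It fell by 2.05 ± 0.40 in fast-growing PNs, with an adjusted p of 0.00424. Slow-growing PNs were at -1.14 ± 0.41 against controls, with an adjusted p of 0.107. Without slow-growing PN 1206 the log2 fold change was -1.47 and the adjusted p was 0.0426, the only 1 of 8 leave-outs under 0.05. Fast- against slow-growing PNs differed by -0.90 ± 0.42, with an adjusted p of 0.252. The call for all PNs was lost when any single control was left out, with adjusted p of 0.0516 without DRG3, 0.059 without DRG4 and 0.0648 without DRG5.

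The receptors behaved differently from each other. Pdgfra (chr5:75152292-75198215, plus strand), the receptor gene for PDGF-A and PDGF-C, has exons that overlap the antisense genes Gm42802 and Gm42803 and, on its own strand, Mir7025. Controls held 84.2, 66.6 and 62.0 CPM. Slow-growing PNs held 113 CPM in 1079, 152 in 1198A, 104 in 1202, 34.8 in 1203 and 79.5 in 1206. Fast-growing PNs held 162 CPM in 1053, 96.0 in 1071, 162 in 1179, 202 in 1191, 153 in 1214 and 206 in 1216. The 6 fast-growing PNs lay above all controls and 5 of them above all slow-growing PNs, whereas slow-growing PNs spread from below the controls into the fast-growing range. Means were 70.9 ± 11.7 CPM in controls (SD, n = 3), 96.7 ± 43.5 in the slow-growing (SD, n = 5) and 163 ± 39.8 in the fast-growing PNs (SD, n = 6). The log2 fold change of fast-growing PNs against controls was 1.16 ± 0.25 (SE), with an adjusted p of 0.00625. For slow-growing PNs against controls it was 0.41 ± 0.41, with an adjusted p of 0.501, and for fast- against slow-growing PNs it was 0.76 ± 0.32, with an adjusted p of 0.214. All PNs against controls gave 0.91 ± 0.40 and an adjusted p of 0.107, which became 0.016 without slow-growing PN 1203, the library with the lowest level. That was the only 1 of 14 leave-outs under 0.05.

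Pdgfrb (chr18:61045150-61085061, plus strand), the receptor gene for PDGF-B and PDGF-D, was at 63.5, 53.6 and 55.8 CPM in controls. Slow-growing PNs had 64.0 CPM in 1079, 62.1 in 1198A, 44.1 in 1202, 38.1 in 1203 and 80.0 in 1206. Fast-growing PNs had 72.1 CPM in 1053, 57.8 in 1071, 61.7 in 1179, 82.0 in 1191, 60.3 in 1214 and 83.6 in 1216. The groups overlapped, with means of 57.7 ± 5.19 CPM in controls (SD, n = 3), 57.6 ± 16.8 in the slow-growing (SD, n = 5) and 69.6 ± 11.4 in the fast-growing PNs (SD, n = 6). The log2 fold change against controls was 0.15 ± 0.21 (SE) for all PNs, -0.04 ± 0.25 for slow-growing PNs and 0.22 ± 0.16 for fast-growing PNs, with adjusted p of 0.615, 0.933 and 0.333. Between fast- and slow-growing PNs it was 0.27 ± 0.20, with an adjusted p of 0.466. The sign for all PNs depended on the treatment of transcript length, with a log2 fold change of -0.0655 once a trend on length had been removed.

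**Figure D2:**
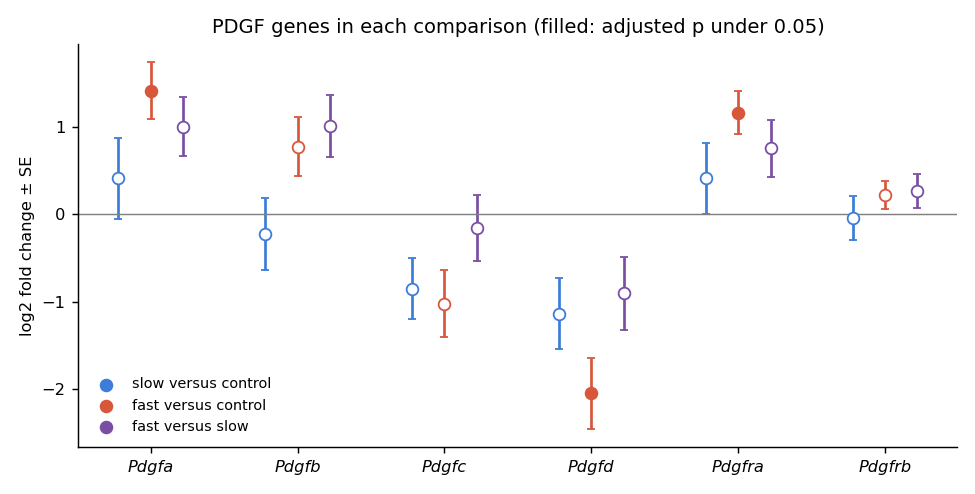
Log2 fold change with its SE (edgeR quasi-likelihood test) of each PDGF gene for slow-growing PNs against controls, fast-growing PNs against controls and fast- against slow-growing PNs; filled points have an adjusted p under 0.05. Filled points are Pdgfa at 1.41, Pdgfd at -2.05 and Pdgfra at 1.16, all for fast-growing PNs against controls.

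The share of all genes called gives the background for these counts. Of the 6 genes, 1 was called in PNs against controls, where 26.3% of all genes tested were called (12.9% higher and 13.4% lower); the member was on the lower side. In fast-growing PNs against controls 3 were called, 2 higher and 1 lower, beside 31.4% of all genes (14.8% higher and 16.7% lower). In slow-growing PNs against controls 0 were called, beside 11.3% of all genes; 2 had an unadjusted p under 0.05, and DESeq2 called 1 and limma-voom 0. Between fast- and slow-growing PNs 0 were called, beside 1.27% of all genes; 3 had an unadjusted p under 0.05, and both DESeq2 and limma-voom called 0. The groups did not overlap for 2 of the 6 genes in PNs against controls, for 2 in slow-growing PNs against controls, for 4 in fast-growing PNs against controls and for 0 in fast- against slow-growing PNs. Over all genes tested, the shares without overlap were 17.7%, 23.4%, 32.4% and 3.01% in the same order. The comparisons with controls share the same 3 control libraries.

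Skeletal muscle and fat transcripts differed between the groups beside these results. The 10 muscle markers summed to 3374 to 13791 CPM in controls, 28.0 to 3278 CPM in the slow-growing and 56.2 to 2026 CPM in the fast-growing PNs. The 10 fat markers summed to 3863 to 5610 CPM in controls, 17.8 to 3024 CPM in the slow-growing and 17.7 to 270 CPM in the fast-growing PNs, and no marker of either list was at 0 in a whole group. With a muscle score and a fat score as covariates, the log2 fold changes of fast-growing PNs against controls were 1.80 for Pdgfa, 0.29 for Pdgfra and -1.18 for Pdgfd, and none of the 3 stayed past the threshold (adjusted p of 0.75, 0.949 and 0.907). These scores followed the group closely, explaining 91.3% of the variance of the group variable over the 9 libraries, and the SE of the 3 fold changes was 1.03, 0.53 and 1.26, against 0.33, 0.25 and 0.40 without them. That fit called 0 of all 16037 genes, so a lost call in it does not show that a gene follows muscle or fat. In PNs against controls it left Pdgfd at -0.57, with an SE of 0.69 and an adjusted p of 0.657; there the scores explained 65.5% of the variance of the group variable. Tissue composition and tumor state cannot be told apart in this comparison of ganglia with tumors.

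Levels between genes were compared per kilobase of the longest annotated transcript. On this scale Pdgfa had the highest mean of the family in each group, with 12.6 ± 5.63 CPM per kb in controls (SD, n = 3), 17.1 ± 10.02 in the slow-growing (SD, n = 5) and 34.4 ± 11.1 in the fast-growing PNs (SD, n = 6). In controls Pdgfa, Pdgfrb (10.6 ± 0.96) and Pdgfra (10.4 ± 1.71) overlapped, and Pdgfc (3.54 ± 0.36), Pdgfb (2.79 ± 0.38) and Pdgfd (1.999 ± 0.13) followed, with Pdgfc and Pdgfb overlapping. In fast-growing PNs the order was Pdgfa, Pdgfra (23.9 ± 5.83), Pdgfrb (12.8 ± 2.10), Pdgfb (4.94 ± 1.72), Pdgfc (1.81 ± 0.80) and Pdgfd (0.50 ± 0.26). Each of these neighbours stood in this order in all 6 fast-growing PNs, although the ranges over libraries overlapped for every pair but Pdgfrb and Pdgfb. Slow-growing PNs had the same order of means, with Pdgfa above Pdgfra in 3 of 5 libraries and Pdgfb above Pdgfc in 3 of 5. With total exon length in place of the longest transcript, Pdgfrb had the highest mean in controls (10.5 ± 0.95, against 8.30 ± 3.72 for Pdgfa), and Pdgfa had it in slow-growing PNs (11.3 ± 6.62) and fast-growing PNs (22.7 ± 7.36). By either length, the mean of Pdgfb stood below that of Pdgfc in controls and above it in both PN groups. By total exon length, the control mean of Pdgfb (1.97 ± 0.27) was also just below that of Pdgfd (1.98 ± 0.13). The 4 ligands summed to 20.9 ± 5.76 CPM per kb in controls, 22.5 ± 10.97 in the slow-growing and 41.7 ± 12.2 in the fast-growing PNs; the receptors summed to 21.0 ± 2.62, 24.8 ± 8.04 and 36.8 ± 7.73.

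The makeup of the ligand pool differed between the groups. Pdgfa accounted for 58.4% ± 9.69 of the summed ligand level per kb in controls (SD, n = 3), 74.4% ± 8.34 in the slow-growing (SD, n = 5) and 82.2% ± 4.08 in the fast-growing PNs (SD, n = 6). Pdgfb held 14.3% ± 5.17, 11.2% ± 3.801 and 12.2% ± 4.69, a share that moved by less than its SD. Pdgfc held 17.5% ± 2.82, 9.83% ± 4.84 and 4.41% ± 1.81, and Pdgfd held 9.91% ± 1.89, 4.55% ± 1.99 and 1.17% ± 0.41. The CUB domain ligands together were thus the smaller part of the pool in every group and smallest in fast-growing PNs.

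The log2 ratio of Pdgfra to Pdgfrb per kb was 0.07, -0.02 and -0.18 in the controls. Slow-growing PNs gave 0.49 in 1079, 0.96 in 1198A, 0.90 in 1202, -0.46 in 1203 and -0.34 in 1206. Fast-growing PNs gave 0.84 in 1053, 0.40 in 1071, 1.06 in 1179, 0.96 in 1191, 1.01 in 1214 and 0.97 in 1216. The fast-growing PNs all exceeded the controls, and the slow-growing PNs fell into 3 above and 2 below them. With total exon length in place of the longest transcript, the mean ratio was -0.58 in controls, -0.23 in the slow-growing and 0.33 in the fast-growing PNs, so the sign for slow-growing PNs depends on the length used; the choice of length shifts every library by the same amount and cannot change their order. These shares and ratios were not tested.

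**Figure D3:**
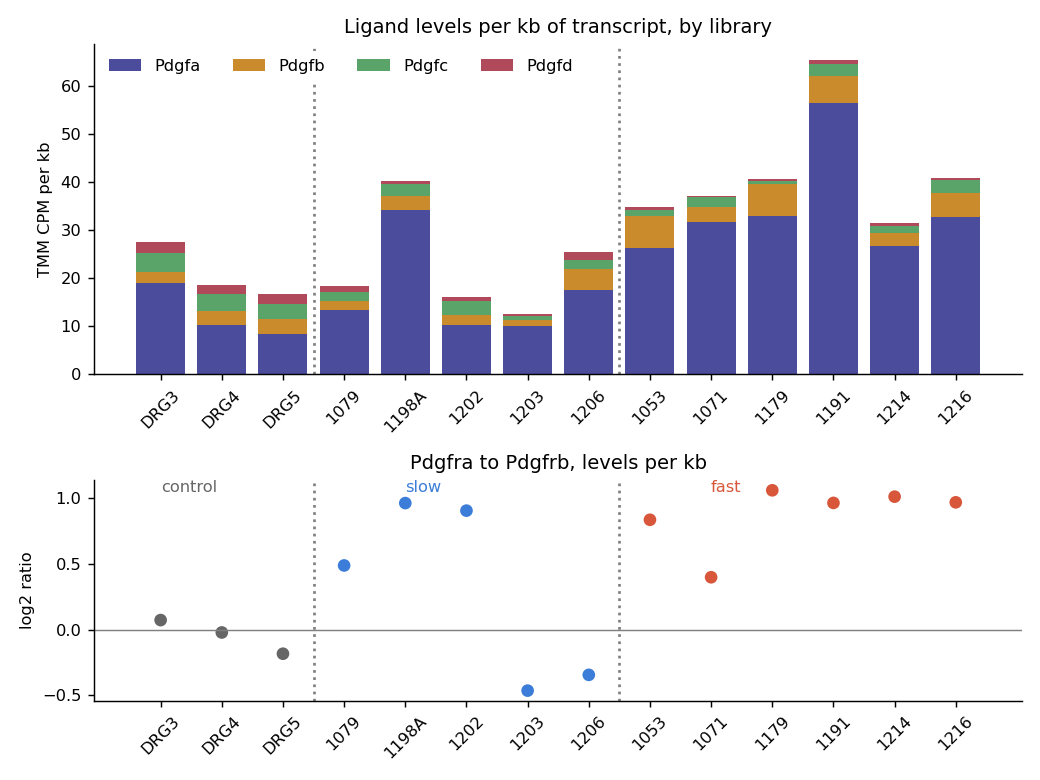
Top, stacked bars of the 4 ligand levels (TMM CPM per kb of longest transcript) in each library; bottom, log2 ratio of Pdgfra to Pdgfrb on the same scale, with dotted lines between control, slow-growing and fast-growing libraries. Pdgfa is the largest part of every bar, and the ratio is between 0.40 and 1.06 in the fast-growing PNs.

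Genes that act around the ligands and receptors were taken from lists by role. Among 7 genes of ligand-activating proteases, Plat rose in PNs against controls, 14.3% of the list, beside 12.9% of all genes that rose. Plat encodes tissue plasminogen activator, which is known to cleave the CUB domain of PDGF-C. Its level was 22.9 ± 9.33 CPM in controls (SD, n = 3), 36.8 ± 13.2 in the slow-growing (SD, n = 5) and 96.5 ± 22.3 in the fast-growing PNs (SD, n = 6). The log2 fold change was 1.60 ± 0.53 (SE) for PNs against controls, with an adjusted p of 0.0403, and 2.03 ± 0.29 for fast-growing PNs against controls, with an adjusted p of 0.000752. Plat also rose in fast- against slow-growing PNs, by 1.39 ± 0.27, with an adjusted p of 0.0449. This p is close to the threshold, and values of Plat with a library left out are not given here. Over all genes, the 196 calls of this comparison became 2 without slow-growing PN 1079 and 1194 without slow-growing PN 1198A. Its fast-growing range, 77.6 to 135 CPM, lay wholly above the slow-growing range, 15.9 to 49.8 CPM. It was 1 of 53 pathway genes (1.89%) called between fast- and slow-growing PNs, beside 1.27% of all genes, and none of the 11 related genes was called. The other 6 protease genes, which include Plau, St14 and Furin, were not called in PNs against controls.

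Of 5 genes whose products bind PDGFs or work with their receptors, 2 rose in PNs against controls and 3 rose in fast-growing PNs against controls, where 12.9% and 14.8% of all genes rose. Sparc, a matrix protein that binds PDGF-B, had a log2 fold change of 1.47 ± 0.46 (SE) in PNs, with an adjusted p of 0.0293. Itgav, the αv integrin, had 1.34 ± 0.41, with an adjusted p of 0.0255. Fast-growing PNs added Lrp1, a receptor that PDGFRβ is known to phosphorylate, at 0.80 ± 0.26, with an adjusted p of 0.0396. The median over this list was 0.60 in PNs against controls, beside 0.10 over all genes tested.

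Among 29 adaptors and effectors of receptor signaling, 7 rose and 3 fell in PNs against controls, and 19 were not called. These 10 are 34.5% of the list, beside 26.3% of all genes called. Those that rose were Shc1, Gab1, Src, Fyn, Pik3r1, Prkca and Stat3, and those that fell were Pik3cb, Map2k2 and Stat5b. The largest changes were in Prkca, which encodes protein kinase C alpha, at 1.11 ± 0.38 (SE) with an adjusted p of 0.0445, and Map2k2, the MEK2 gene, at -1.10 ± 0.17 with an adjusted p of 0.000317. Map2k2 was at 40.8 ± 1.09 CPM in controls (SD, n = 3), 19.0 ± 3.13 in the slow-growing (SD, n = 5) and 19.1 ± 4.36 in the fast-growing PNs (SD, n = 6), and no PN reached a control. Map2k1, the MEK1 gene, was also apart from controls, in the other direction, and rose in fast-growing PNs by 0.51 ± 0.15, with an adjusted p of 0.027; it was singled out after its values had been seen. Pik3r1, a regulatory subunit of PI3-kinase, rose by 0.91 ± 0.18 in PNs, with an adjusted p of 0.00253. The median log2 fold change of the 29 genes was 0.19, beside 0.10 over all genes. In fast-growing PNs against controls 7 rose and 3 fell, also 34.5% of the list, beside 31.4% of all genes called. In slow-growing PNs against controls Prkca rose and Map2k2 fell, 6.90% of the list, beside 11.3% of all genes called.

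Negative regulators of receptor signaling were followed next. Spry4, a Sprouty gene that is a known target of receptor-driven ERK signaling, rose in PNs against controls by 1.12 ± 0.37 (SE), with an adjusted p of 0.0387. Its level was 28.9 ± 6.78 CPM in controls (SD, n = 3), 46.7 ± 23.2 in the slow-growing (SD, n = 5) and 76.2 ± 16.6 in the fast-growing PNs (SD, n = 6). Among the reported genes of this list, Spry4, Dusp6 and Ptprj rose and Acp1 fell in fast-growing PNs against controls. Over all genes, 14.8% rose and 16.7% fell in that comparison, and 12.9% rose in PNs against controls. Not every gene of the list is reported here, so no share of it is given.

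The related family of vascular endothelial growth factors and of receptor kinases close to the PDGF receptors was lower in PNs in part. Of these 11 genes, 4 fell and none rose in PNs against controls, and 7 fell in fast-growing PNs against controls, where 13.4% and 16.7% of all genes fell. Flt4, a lymphatic receptor, fell by 1.91 ± 0.34 (SE), with an adjusted p of 0.0011. Kdr, the main endothelial VEGF receptor, fell by 1.84 ± 0.30, with an adjusted p of 0.000498, from 76.5 ± 24.4 CPM in controls (SD, n = 3) to 23.2 ± 12.7 in the slow-growing (SD, n = 5) and 20.01 ± 5.27 in the fast-growing PNs (SD, n = 6). Vegfb fell by 1.41 ± 0.36, with an adjusted p of 0.0102. The median of the list was -0.99, beside 0.10 over all genes. Endothelial markers summed to 359 to 484 CPM in controls, 101 to 561 CPM in the slow-growing and 129 to 412 CPM in the fast-growing PNs, with 2 of 10 lower and none higher in PNs against controls, and their part in this list was not tested.

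**Figure D4:**
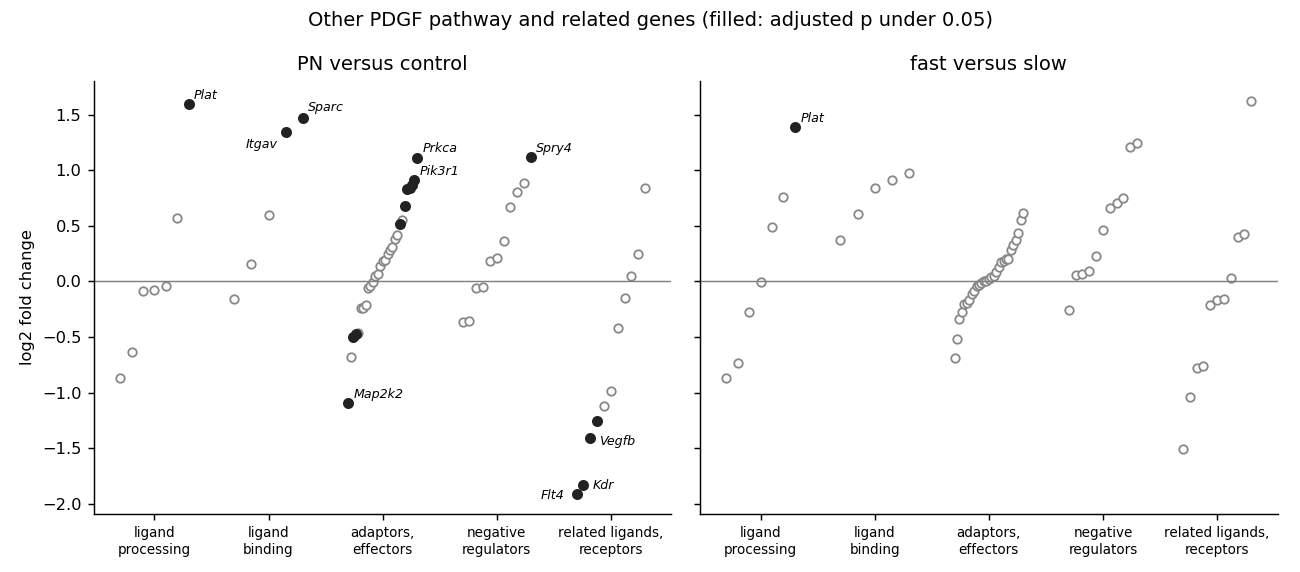
Log2 fold change (edgeR quasi-likelihood test) of PDGF pathway genes by role and of related genes, for PNs against controls (left) and fast- against slow-growing PNs (right); each point is a gene, and filled points have an adjusted p under 0.05. Plat, at 1.39, is the only filled point on the right.

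Markers of the cells in which the receptors are best known were set beside them. The 10 fibroblast markers summed to 2036 to 3932 CPM in controls, 1297 to 5689 CPM in the slow-growing and 5813 to 10874 CPM in the fast-growing PNs. In PNs against controls none of the 10 rose and Pi16 fell, by 1.63 ± 0.52 (SE) on the log2 scale with an adjusted p of 0.033, beside 12.9% of all genes that rose and 13.4% that fell. In fast-growing PNs against controls 7 of the 10 rose, among them Dcn, Lum and Col1a1, beside 14.8% of all genes, and Dpt fell, by 3.09 ± 1.03 with an adjusted p of 0.0462; Dpt was below all controls in all 11 PNs. The 10 pericyte and smooth muscle markers summed to 1202 to 1407 CPM in controls, 250 to 1319 CPM in the slow-growing and 300.1 to 435 CPM in the fast-growing PNs, and in fast-growing PNs against controls 8 fell and 1 rose, where 16.7% of all genes fell and 14.8% rose. Pdgfra thus stood at a higher level in fast-growing PNs together with most of the fibroblast markers. Pdgfrb had a log2 difference of 0.22 ± 0.16 (SE) from controls there, and the median over the pericyte and smooth muscle markers was -2.68. The markers of that list did not move together. Cspg4 rose and Rgs5 was not called, while Kcnj8, Abcc9, Notch3, Acta2, Myh11, Tagln, Myl9 and Des fell. Platelet markers, from cells known to store PDGFs, summed to 59.4 to 256 CPM in controls, 10.6 to 61.6 CPM in the slow-growing and 8.95 to 18.8 CPM in the fast-growing PNs. No marker of these lists was at 0 throughout a group, and the part of these cells in the levels of the PDGF genes was not tested.

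Relations across the 11 PN libraries were computed for 6 pairs on log2(CPM + 1), with two-sided permutation tests of 100000 resamples and adjustment over the 6. Pdgfra followed the fibroblast score, the mean over the fibroblast markers, with Pearson's r = 0.905 (permutation p = 0.00018, adjusted 0.00108) and Spearman's rho = 0.873 (permutation p = 0.00079, adjusted 0.00474). Within fast-growing PNs r was 0.813 (exact permutation p = 0.0292, n = 6), and within slow-growing PNs it was 0.907 (n = 5, not tested). Without the libraries farthest from the median score, fast-growing PN 1191 and slow-growing PN 1203, r was 0.740 (permutation p = 0.0267, n = 9). Leaving out slow-growing PN 1203 alone gave r = 0.761, and the adjusted permutation p became 0.0541.

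Pdgfrb did not follow the pericyte and smooth muscle score past the threshold, with r = 0.371 (permutation p = 0.259, adjusted 0.311) and rho = 0.482 (permutation p = 0.139, adjusted 0.166). Within fast-growing PNs r was 0.730 (exact permutation p = 0.101, n = 6) and within slow-growing PNs 0.707 (n = 5), and without slow-growing PNs 1202 and 1206 it was 0.565 (permutation p = 0.123). Leaving out single PNs moved r between 0.182, without slow-growing PN 1206, and 0.542, without slow-growing PN 1202. Pdgfb and the endothelial score gave r = 0.561 (permutation p = 0.0715, adjusted 0.107) and rho = 0.564 (permutation p = 0.0767, adjusted 0.115). Within groups r was 0.813 for fast-growing PNs (exact permutation p = 0.0639, n = 6) and 0.866 for slow-growing PNs (n = 5), and without slow-growing PNs 1203 and 1206 it was 0.464 (permutation p = 0.211).

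Ligands and receptors were related in the same way. Pdgfra and Pdgfa had r = 0.756 (permutation p = 0.00484, adjusted 0.0113) and rho = 0.673 (permutation p = 0.0281, adjusted 0.0843). Within fast-growing PNs r was 0.387 (exact permutation p = 0.329, n = 6) and within slow-growing PNs 0.634 (n = 5), and without slow-growing PNs 1202 and 1203 it was 0.667 (permutation p = 0.0492). Within the fast-growing group neither this relation nor that of Pdgfrb with Pdgfb passed the threshold. With 6 libraries that does not show that a relation is absent. Pdgfrb and Pdgfb had r = 0.765 (permutation p = 0.00567, adjusted 0.0113) and rho = 0.618 (permutation p = 0.0479, adjusted 0.0959). Within fast-growing PNs r was 0.530 (exact permutation p = 0.2875, n = 6), within slow-growing PNs 0.822 (n = 5), and without fast-growing PN 1053 and slow-growing PN 1203 it was 0.614 (permutation p = 0.0778). Both relations lost their adjusted p under 0.05 without slow-growing PN 1203, at 0.086 (r = 0.683) and 0.111 (r = 0.617). The remaining pairs among Pdgfa, Pdgfb, Pdgfra and Pdgfrb were not tested and had similar values. Across PNs r was 0.741 for Pdgfa with Pdgfb and 0.722 for Pdgfb with Pdgfra. It was 0.709 for Pdgfra with Pdgfrb and 0.682 for Pdgfa with Pdgfrb, so high r was not particular to a ligand and its receptor. Pdgfra and Pdgfc had r = 0.320 (permutation p = 0.339, adjusted 0.339) and rho = 0.200 (permutation p = 0.559, adjusted 0.559). Within fast-growing PNs r was 0.106 (exact permutation p = 0.821, n = 6) and within slow-growing PNs 0.905 (n = 5), and without slow-growing PN 1203 and fast-growing PN 1179 it was 0.0388 (permutation p = 0.922).

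**Figure D5:**
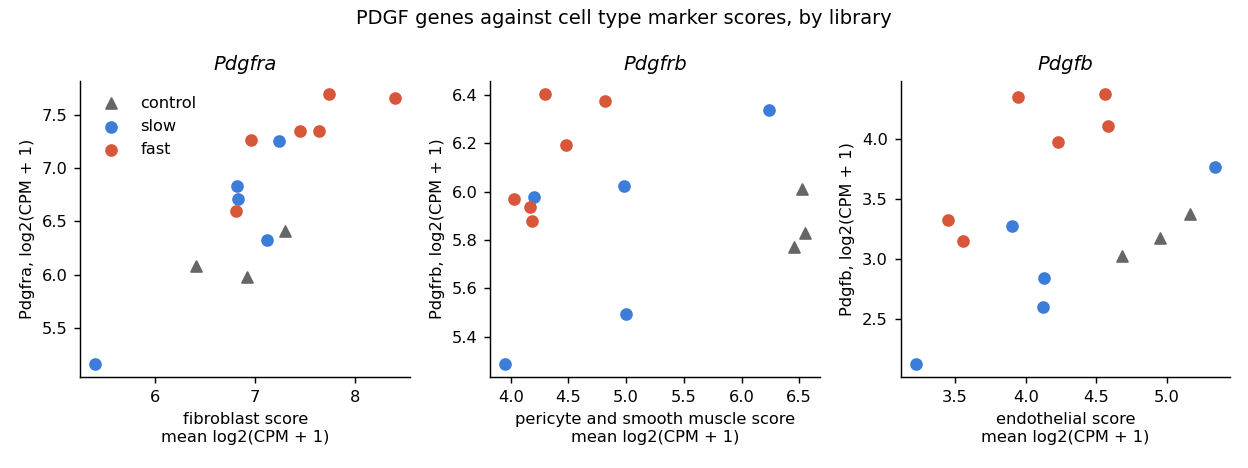
Level of Pdgfra, Pdgfrb and Pdgfb, each as log2(CPM + 1), against the score of fibroblast, of pericyte and smooth muscle, and of endothelial markers (mean log2(CPM + 1) of 10 genes each); circles are slow-growing and fast-growing PNs, and triangles are controls, which were not part of the correlations. Pdgfra follows the fibroblast score across PNs with r = 0.905, and controls hold the highest pericyte and smooth muscle scores at intermediate levels of Pdgfrb.

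For each gene, the 3 genes with the most similar pattern over the 11 PN libraries were listed among 11103 or 11104 genes whose mean log2 CPM reached 3 or more, by Pearson's r of log2(CPM + 1). Pdgfra was most like Dcn (r = 0.972), Stra6 (0.971) and Pkd2 (0.968), and Dcn is itself among the fibroblast markers above. Pdgfa was most like Vcl (0.988), Rnd3 (0.988) and Akap2 (0.986), and Pdgfb was most like Ltbr (0.968), Szrd1 (0.965) and Rela (0.965). Pdgfrb was most like Plekhg2 (0.952), Actn4 (0.951) and Bmi1 (0.951). Pdgfc had lower values, with Patl1 (0.879), Mrpl24 (0.812) and Nup133 (0.810). Pdgfd was most like Gucy1a3 (0.925), Tll1 (0.925) and Myl9 (0.920), the last of which is a smooth muscle marker of the list above. These are descriptions without a test, since the libraries share their depth, their tissue makeup and their growth group, and the highest of many correlations is high by selection.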

How the data were processed

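Whole tissues were profiled by bulk RNA-seq in 14 libraries. Total RNA was amplified by the authors (Ovation RNA-Seq System v2), and the submitters' processing notes name CASAVA 1.4, FastQC 0.11.0, TopHat2 2.0.9, featureCounts 1.5.2, edgeR 3.16.5 and mm10. The authors deposited whole-number counts for 24062 genes, without normalization, and log2 values for 16382 genes after TMM scaling. The gene annotation and the strand setting of the counting are not given in the sources used here, so reads of a gene and its antisense partner cannot be told apart.

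Counts were tested in R 4.3.3 with edgeR 4.0.16 (filterByExpr, TMM, quasi-likelihood test, Benjamini-Hochberg), with only the libraries of each comparison in the fit and no covariate. DESeq2 1.42.0, limma 3.58.1, other scalings and filters, 1 fit over all 14 libraries, muscle and fat covariates, removal of a length trend and leaving out each library were alternatives. The test was also run on simulated data, and the outcome is not given here. Levels are TMM CPM from the fit of all PNs against controls. Positions and lengths came from GENCODE M21 (mm10), with 22750 genes matched by symbol, 934 by an older symbol and 378 not matched. Permutation tests and figures used Python 3.11.15 and matplotlib 3.10.9. The members and gene lists were chosen with earlier results of these data known. Besides the members, values are given for up to 3 called genes with the largest change in PNs against controls from each pathway or related list. Further genes are named outside this rule, among them the other called adaptors and effectors, Map2k1, Lrp1, Dusp6, Ptprj and Acp1. The macrophage list (7 of 8 genes in the table) and the satellite glia (4 genes), perineurial (5 genes) and neuron (10 genes) lists served as checks. In PNs against controls they had 0, 1, 1 and 0 called genes, beside 26.3% of all genes called. Macrophage markers summed to 121 to 474 CPM in controls, 40.4 to 336 CPM in the slow-growing and 178 to 562 CPM in the fast-growing PNs. No other samples of the series were used here, and 1 gene of the negative regulator list is not reported here.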

Additional observations from a re-analysis of the deposited data

Results flagged for a closer look

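Within groups of 5 or 6 PNs, 32 sets of values were examined for a library far from its group, and about 1 in 20 is marked by chance. Pdgfa in fast-growing PN 1191 was 116 CPM, while the next highest fast-growing PN had 67.9 CPM. The log2 ratio of Pdgfra to Pdgfrb per kb in fast-growing PN 1071 was 0.40, while the next lowest had 0.84. The summed pericyte and smooth muscle markers in slow-growing PN 1206 were 1319 CPM, while the next highest slow-growing PN had 415 CPM. Fast-growing PN 1191 is also the library with the lowest neuron markers, at 49.9 CPM, and slow-growing PN 1206 has the highest fat markers among PNs, at 3024 CPM; the part of these in the values was not tested.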

How the results depend on the processing

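In fast-growing PNs against controls, the 3 calls (Pdgfa, Pdgfra and Pdgfd) were made under each scaling, filter, test and length setting and without any single library (3 to 4 genes called), and 0 genes were called with muscle and fat covariates. In PNs against controls, 1 gene was called, against 2 with DESeq2's Wald test, 2 with limma-voom, 0 with muscle and fat covariates and 0 to 2 with a library left out. In slow-growing PNs against controls 0 were called, against 1 with DESeq2's Wald test and 0 to 1 with a library left out; between fast- and slow-growing PNs 0 were called, and 0 to 1 with a library left out. The muscle and fat covariates reversed the log2 fold change of Pdgfa in PNs (-0.34) and slow-growing PNs (-0.38) against controls, of Pdgfb in PNs (-0.98), fast-growing PNs (-0.47) and slow-growing PNs (0.0306) against controls, of Pdgfc in slow-growing PNs against controls (0.19) and in fast- against slow-growing PNs (0.54), and of Pdgfrb in PNs (-0.30) and fast-growing PNs (-0.14) against controls; in these fits the scores explained 48.4% to 91.3% of the variance of the group variable, which widens the error of the fold change, and the SE of Pdgfa in fast-growing PNs against controls went from 0.33 to 1.03. Pdgfrb also turned to -0.0655 in PNs against controls with the length trend removed and to 0.0404 in slow-growing PNs against controls with library totals alone. With a library left out, slow-growing PNs against controls ranged from -0.19 to 0.11 for Pdgfrb and from -0.00021 to 0.82 for Pdgfa. Total exon length moved the log2 ratio of Pdgfra to Pdgfrb to -0.58 in controls, -0.23 in the slow-growing and 0.33 in the fast-growing PNs. Leaving out a PN gave r from 0.761 to 0.940 for Pdgfra with the fibroblast score, 0.683 to 0.817 with Pdgfa, -0.125 to 0.595 with Pdgfc, 0.617 to 0.845 for Pdgfrb with Pdgfb, 0.182 to 0.542 for Pdgfrb with the pericyte and smooth muscle score, and 0.388 to 0.653 for Pdgfb with the endothelial score. No paired analysis was possible because the groups share no replicate numbers. Depth limits Pdgfd most, with 10 counts in its lowest library. The median log2 fold change of all genes was 0.10 in PNs against controls, and with genes split into 4 classes of transcript length it was -0.26 in the shortest and 0.29 in the longest. Over all genes, slow-growing PNs against controls gave 1769 calls, against 3529 with DESeq2 and 3280 in 1 fit over 14 libraries; fast- against slow-growing PNs gave 196, against 1570, 34 with limma-voom and 423 in that single fit; with the muscle and fat covariates there were 560 calls in PNs against controls, against 4283 without them, and 0 in the other comparisons.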
